A study of Homo sapiens with 9 samples.

Results

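PDX1, GATA4, GATA6, HNF4A, FOXA1, FOXA2, SOX9 and TP63 are transcription factors that set or mark the identity of pancreatic epithelium, and they were followed here through 9 RNA sequencing libraries of a human pancreatic cancer line. The 8 genes were taken by symbol from the 58735 genes of the deposited tables, and each symbol was found once. The rule that lists them uses no measured value, though the list was chosen with earlier results of these data known. Only 3 of the 8, GATA4, FOXA1 and SOX9, had a mean of at least 1 FPKM over the 9 libraries. FPKM is the number of fragments per kilobase of gene length, scaled to the size of the library, so levels can be set side by side between genes of different length.

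The cells were PaTu 8988t, an established human line derived from a liver metastasis of pancreatic ductal cancer, and all 9 libraries came from this 1 line in the same medium. Per the labels, 3 libraries came from cells treated with an extracellular matrix named CPXM2WT OE ECM, 3 from cells on a matrix named CPXM2R213A OE ECM, and 3 from cells given a control matrix (Ctrl ECM). They are called wild type, R213A and control below. CPXM2 is a secreted, carboxypeptidase-like protein with a discoidin domain, and the title of the study names collagen aligned by it. The labels spell out neither OE nor how the matrix was made, and they do not say whether the libraries within a group were independent cultures, so a p-value here covers only library-to-library spread, which may be technical.

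The pancreas forms from foregut endoderm, and a small set of transcription factors opens and maintains its programme. FOXA1 and FOXA2 are pioneer factors that bind closed chromatin, PDX1, GATA4, GATA6 and SOX9 build the early pancreatic epithelium, and HNF4A drives metabolic genes of endodermal epithelium. In pancreatic cancer, GATA6, HNF4A, PDX1 and the FOXA factors are known as features of classical tumours, which keep a glandular, endoderm-like state. TP63, in its shorter ΔN form, is the factor of basal epidermal cells and is known as a driver of the squamous end of the basal-like state, in which the classical factors are reduced.

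RefSeq promoter sequences were matched for FOXA1, GATA6, HNF4A and TP63, the only members with an entry in the promoter set used, and are shown. They include an expressed pioneer factor and 2 genes with almost no reads, but not GATA4, the member of highest level. The coordinates are of GRCh38.p14, and each sequence is written 5' to 3' on the strand of its gene. No sequence overlaps a GENCODE 29 exon of its gene, and capitals mark the GC box GGGCGG or its reverse complement CCGCCC. The FOXA1 sequence is chr14:37595349-37595499 on the minus strand, that of GATA6 is chr18:22169339-22169442 on the plus strand, and that of TP63 is chr3:189631139-189631388 on the plus strand. The FOXA1 sequence lies inside the gene span given below, in an intron of a longer transcript. The TP63 sequence lies just before the gene span given below. It was not matched to the shorter ΔN form, and no TP63 start within the gene is shown. HNF4A has an upstream start (chr20:44355449-44355698, plus strand) and a downstream start (chr20:44400989-44401238, plus strand), the second of which lies in an intron of the longer transcripts.
FOXA1: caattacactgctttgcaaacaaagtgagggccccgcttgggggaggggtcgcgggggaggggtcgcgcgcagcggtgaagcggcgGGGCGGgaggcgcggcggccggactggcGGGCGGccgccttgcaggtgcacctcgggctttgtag
GATA6: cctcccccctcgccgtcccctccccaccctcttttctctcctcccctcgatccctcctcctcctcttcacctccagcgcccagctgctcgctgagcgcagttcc
HNF4A upstream start: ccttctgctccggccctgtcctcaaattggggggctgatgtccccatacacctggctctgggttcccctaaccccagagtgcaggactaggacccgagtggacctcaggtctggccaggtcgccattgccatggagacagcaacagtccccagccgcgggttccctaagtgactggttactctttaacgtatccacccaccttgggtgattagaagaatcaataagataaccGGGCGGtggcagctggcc
HNF4A downstream start: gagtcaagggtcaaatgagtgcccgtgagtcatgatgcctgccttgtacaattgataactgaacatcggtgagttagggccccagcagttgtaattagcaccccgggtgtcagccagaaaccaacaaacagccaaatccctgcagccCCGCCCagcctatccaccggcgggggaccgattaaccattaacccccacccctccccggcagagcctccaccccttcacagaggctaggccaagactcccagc
TP63: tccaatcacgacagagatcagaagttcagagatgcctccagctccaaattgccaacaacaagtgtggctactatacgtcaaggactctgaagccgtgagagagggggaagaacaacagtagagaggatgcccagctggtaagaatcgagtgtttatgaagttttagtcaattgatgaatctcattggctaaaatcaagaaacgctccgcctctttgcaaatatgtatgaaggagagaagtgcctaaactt

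Base composition and motifs were counted over the full 250 bases before each RefSeq start, of which FOXA1 and GATA6 show a part. The FOXA1 window held 67.2% G and C and 26 CpG dinucleotides, and that of GATA6 held 64.4% and 16. For HNF4A the values were 58.4% and 8 at the upstream start and 58.0% and 8 at the downstream start, and TP63 held 44.0% and 6. The medians over 35116 RefSeq promoters were 58.0% and 11, so FOXA1 and GATA6 lay above the middle of all promoters for both measures, and TP63 lay below it. GGGCGG, searched on both strands, was at 2 positions in FOXA1, at 1 in each HNF4A window and at none in GATA6 and TP63, and 42.6% of all promoters held it. TATAAA was in none of the 5 windows, against 10.7% of all promoters. CCAAT was at 2 positions in TP63, at 1 in GATA6 and in the upstream HNF4A window, and at none in the other two, against 32.0% of all promoters. AGATAA, a form bound by GATA factors, was at 1 position in the upstream HNF4A window and in no other, against 9.2% of all promoters.

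Depth was similar in all 9 libraries. Whole reads recovered from the FPKM summed to between 15951927 and 18312806 per library, with a read for 20059 to 21401 genes. The values came as a 5-library table (wild type 2 and 3, R213A 2, control 2 and 3) and a 4-library table (wild type 1, R213A 1 and 3, control 1), and the labels do not say what divides them. A pair of libraries from different tables differed at least 2-fold on the log2(FPKM + 1) scale in 1663 to 5434 of 11193 genes. Within the 4-library table the range was 387 to 2316 genes. Control 1 differed in 387 genes from R213A 3, in 1862 from wild type 1 and in 2316 from R213A 1. From libraries of the 5-library table control 1 differed in 1663 to 2273 genes, so the tables did not divide the libraries cleanly. Each value for wild type against control within the 4-library table rests on the single pair of wild type 1 and control 1. Control 2 differed in 376 to 416 genes from the rest of the 5-library table, whose 4 other libraries differed from each other in 41 to 66. Differences between matrix groups were therefore formed within each table, and the test over all 9 libraries carried the table as a term.

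The order of mean levels was GATA4, FOXA1, SOX9, PDX1, GATA6, FOXA2, TP63 and HNF4A. GATA4 averaged 5.03 FPKM over the 9 libraries and ranked 322nd of the 1553 genes that the tables annotate as transcription factors. FOXA1 averaged 2.58 FPKM and ranked 508th, and SOX9 averaged 1.05 FPKM and ranked 759th. PDX1, at 0.662 FPKM, and GATA6, at 0.539 FPKM, fell on the other side of 1 FPKM, a level that 770 of the 1553 factors reached. SOX9 and PDX1 were the members nearest to that level from above and from below. FOXA2, TP63 and HNF4A averaged 0.0196, 0.0041 and 0.0008 FPKM. GATA4 was above FOXA1, and FOXA1 above SOX9, in 9 of 9 libraries, and GATA6 was above FOXA2 in 9 of 9. PDX1 was above GATA6 in 2 of 5 libraries of the 5-library table and in 4 of 4 of the 4-library table, so that their order depended on the table, and FOXA2, TP63 and HNF4A were all within the counting error of a few reads.

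**Figure D1:**
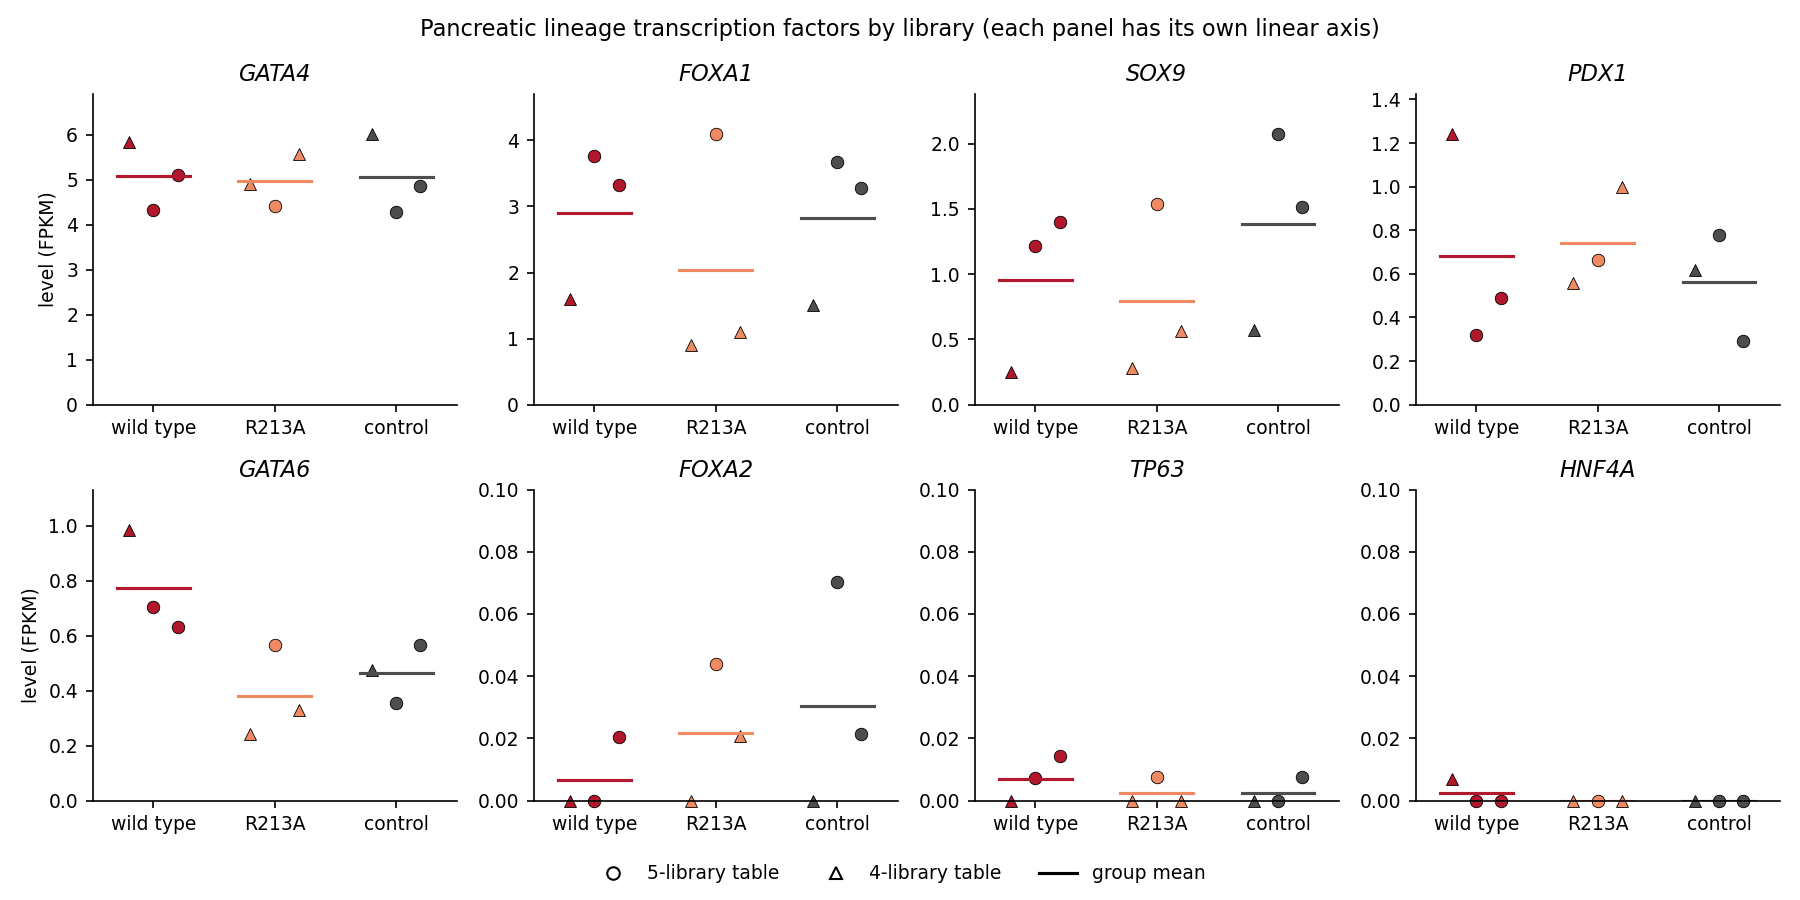
Level of each lineage factor in FPKM (vertical axes, linear, each panel with its own range) in the 9 libraries of the wild type, R213A and control matrix groups; circles are libraries of the 5-library table, triangles those of the 4-library table, and lines are group means. FOXA1 and SOX9 split by table, the 3 wild type values of GATA6 sit above the other 6, and FOXA2, TP63 and HNF4A do not exceed 0.0702 FPKM.

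GATA4 (ENSG00000136574, chr8:11676959-11760002, plus strand), a zinc-finger factor that works beside GATA6 in the early pancreas and gut, was the highest and steadiest member. Its levels were 5.83, 4.32 and 5.10 FPKM in wild type libraries 1 to 3, 4.91, 4.42 and 5.57 FPKM in R213A libraries 1 to 3, and 6.01, 4.28 and 4.86 FPKM in control libraries 1 to 3. The groups overlapped throughout, and the whole range from 4.28 to 6.01 FPKM rested on 296 to 501 reads per library. The means were 5.08 ± 0.756 FPKM in wild type, 4.97 ± 0.578 FPKM in R213A and 5.05 ± 0.884 FPKM in control (SD, n = 3 each).

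FOXA1 (ENSG00000129514, chr14:37589984-37596059, minus strand), the pioneer factor whose promoter is shown above, was the second of the 3 members over 1 FPKM. It had 1.60, 3.76 and 3.32 FPKM in wild type libraries 1 to 3, 0.907, 4.09 and 1.09 FPKM in R213A libraries 1 to 3, and 1.51, 3.67 and 3.28 FPKM in control libraries 1 to 3. The groups overlapped, and the 5 high libraries, at 3.28 to 4.09 FPKM, were those of the 5-library table, while the 4 of the 4-library table had 0.907 to 1.60 FPKM. The gene overlaps TTC6 on the opposite strand, and since the strand setting of the counting is not given, reads of the pair cannot be told apart there. TTC6 itself had 0 to 42 reads per library.

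SOX9 (ENSG00000125398, chr17:72121020-72126420, plus strand), an HMG-box factor of pancreatic progenitors and later of duct cells, followed the same division. It had 0.250, 1.22 and 1.40 FPKM in wild type libraries 1 to 3, 0.281, 1.54 and 0.567 FPKM in R213A libraries 1 to 3, and 0.569, 2.07 and 1.52 FPKM in control libraries 1 to 3. Control 2 was the highest library and wild type 1 the lowest, the groups overlapped, and the 5-library table (1.22 to 2.07 FPKM) lay wholly above the 4-library table (0.250 to 0.569 FPKM). The means were 0.956 FPKM in wild type, 0.796 FPKM in R213A and 1.39 FPKM in control. Only the control group thus carried the overall mean of SOX9 over 1 FPKM.

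PDX1 (ENSG00000139515, chr13:27920020-27926231, plus strand), the homeobox factor required for the pancreas to form, was present at a low level in every library. It had 1.24, 0.320 and 0.487 FPKM in wild type libraries 1 to 3, 0.560, 0.663 and 1.00 FPKM in R213A libraries 1 to 3, and 0.618, 0.779 and 0.290 FPKM in control libraries 1 to 3. The groups overlapped, wild type holding the highest library and control the lowest. These levels rested on 13 to 60 reads, so that the 95% Poisson interval of control 3, which covers counting error only, ran from 0.155 to 0.496 FPKM.

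GATA6 (ENSG00000141448, chr18:22169443-22202528, plus strand), the factor best known for holding pancreatic tumours in the classical state, was lower than its relative GATA4 in each library. It had 0.983, 0.703 and 0.631 FPKM in wild type libraries 1 to 3, 0.243, 0.566 and 0.331 FPKM in R213A libraries 1 to 3, and 0.473, 0.355 and 0.566 FPKM in control libraries 1 to 3. All 3 wild type libraries lay above the other 6, while the R213A and control libraries overlapped. Among the 13993 genes averaging 10 or more recovered reads, 2.5% had all wild type libraries above all control libraries, 2.22% had them above all R213A libraries, and 0.493% had them above all 6. No member had its wild type libraries below all control (2.38% of genes) or all R213A libraries (1.55%), and none had R213A wholly above (2.14%) or below (2.31%) control. The gap was narrow against counting error: wild type 3 had 47 reads with an interval of 0.464 to 0.839 FPKM, and control 3 had 40 reads with an interval of 0.404 to 0.771 FPKM. GATA6-AS1, a transcript from the opposite strand of this locus, had 0 to 2 reads per library.

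FOXA2, TP63 and HNF4A were at or near the limit of detection. FOXA2 (ENSG00000125798, chr20:22581005-22585455, minus strand), the pioneer factor of early endoderm and islets, had 0, 0 and 1 reads in wild type libraries 1 to 3, 0, 2 and 1 in R213A libraries 1 to 3, and 0, 3 and 1 in control libraries 1 to 3. Its highest level was 0.0702 FPKM, in control 2. TP63 (ENSG00000073282, chr3:189631416-189897279, plus strand) had 0, 1 and 2 reads in wild type libraries 1 to 3, 0, 1 and 0 in R213A libraries 1 to 3, and 0, 0 and 1 in control libraries 1 to 3. HNF4A (ENSG00000101076, chr20:44355700-44434596, plus strand), a nuclear receptor, had 1 read in wild type 1, which is 0.00707 FPKM, and no read in the other 8 libraries. A count of 0 allows up to 3 reads per library, which corresponds to 0.0212 to 0.0302 FPKM for HNF4A, 0.0208 to 0.0297 FPKM for TP63 and 0.0596 to 0.0850 FPKM for FOXA2. Differences between the groups were not detectable for these 3 genes at this depth.

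No member passed the test between matrix groups in the fit over all genes. Limma was run on log2(FPKM + 1) for the 11193 genes that averaged 1 FPKM or more, with Benjamini-Hochberg adjustment over all of them and a threshold of 0.05. Of the 3 members tested, 0 passed for wild type against control, where 0% of the 11193 genes were called. The count was 0 of 3 for R213A against control, with 0% of genes called, and 0 of 3 for wild type against R213A, with 0% of genes called. At an unadjusted p under 0.05, 503, 341 and 117 genes passed in these comparisons (4.49%, 3.05% and 1.05%), with none of the 3 members among them. On the recovered reads, limma-voom called 0 genes in each comparison too, with 425, 214 and 100 genes at an unadjusted p under 0.05. In bulk RNA, fewer cells of a type and less RNA per cell cannot be told apart.

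For wild type against control, the differences were 0.01 ± 0.15 for GATA4 and 0.03 ± 0.17 for FOXA1 (log2 ± SE from limma), with adjusted p of 0.984 and 0.963. SOX9 was at -0.29 ± 0.16, with a 95% interval of -0.66 to 0.08 and an adjusted p of 0.757 in limma. Since SOX9 passed the 1 FPKM filter only through the control group, its test is no support for a lower level on either CPXM2 matrix. Formed within the tables, the SOX9 difference was -0.27 in the 5-library table, -0.13 there without control 2, and -0.33 in the 4-library table, which holds 1 library of each of these groups. With a filter at a mean of 10 reads, chosen after seeing the data, the SOX9 interval was -0.58 to -0.0022 with an adjusted p of 0.752 in limma. A change of the difference between tables was called for 0 of the 3 members, beside 1.12% of the 11193 genes. The median difference of the 3 members was 0.01, and between -0.07 and 0.04 with single libraries left out, beside -0.03 over all genes tested. The 95% intervals of GATA4 (-0.33 to 0.35) and FOXA1 (-0.36 to 0.42) allow a difference in either direction, and the typical gene had an interval of 0.48 to either side.

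For R213A against control, the 3 tested members were at -0.10 ± 0.16 for GATA4, -0.10 ± 0.18 for FOXA1 and -0.13 ± 0.17 for SOX9 (log2 ± SE, limma, adjusted p 0.808, 0.831 and 0.770). FOXA1 was on opposite sides of 0 in the tables, at 0.19 (5-library table) and -0.33 (4-library table). The test of that change between tables gave an adjusted p of 0.431 for FOXA1 in limma, and no gene of the 11193 was called in it for this comparison. Without control 2, the 5-library table gave 0.25 for FOXA1, -0.11 for GATA4 and 0.01 for SOX9, the last against -0.13 with it. The median of the 3 members was -0.10, and between -0.16 and -0.06 with single libraries left out, beside -0.02 over all genes tested.

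For wild type against R213A, GATA4 was at 0.11 ± 0.16, FOXA1 at 0.13 ± 0.18 and SOX9 at -0.16 ± 0.17 (log2 ± SE, limma, adjusted p 0.996 for each). FOXA1 was at -0.17 (5-library table) and 0.38 (4-library table). The median of the 3 members was 0.11, beside -0.01 over all genes tested. With single libraries left out it lay between 0.0065 (without wild type 1) and 0.16 (without R213A 2). This comparison and the 2 against control share libraries, so their values are not independent of each other.

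PDX1 and GATA6 were under the 1 FPKM filter, and their differences are descriptions. PDX1 in wild type against control was at -0.11 in the 5-library table, 0.12 there without control 2, and 0.47 in the 4-library table. In R213A against control PDX1 was at 0.13 in both tables, and at 0.37 in the 5-library table without control 2. In wild type against R213A it was at -0.25 (5-library table) and 0.34 (4-library table). PDX1 thus had opposite signs in the tables in both comparisons that use wild type, though not against control once control 2 was left out.

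GATA6 had the same sign in both tables for wild type. Against control it was at 0.19 in the 5-library table, 0.09 there without control 2, and 0.43 in the 4-library table. In R213A against control GATA6 was at 0.10 (5-library table) and -0.20 (4-library table). For wild type against R213A it was at 0.09 (5-library table) and 0.62 (4-library table). In alternatives chosen after seeing the data, a filter at a mean of 10 reads let GATA6 into the limma fit, with an adjusted p of 0.752 in wild type against control and 0.997 in wild type against R213A, where its 95% interval was 0.08 to 0.65. Limma-voom on the recovered reads put it at 0.77 ± 0.45 against control and 1.17 ± 0.48 against R213A, on its own log2 scale of normalized counts, with adjusted p of 0.862 and 0.985. Without wild type 1, the difference on the log2(FPKM + 1) scale was 0.14 against control and 0.19 against R213A, less than the 0.27 and 0.36 with all libraries. The higher GATA6 values in wild type thus did not pass the test over all genes, and their size rested in part on 1 library.

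**Figure D2:**
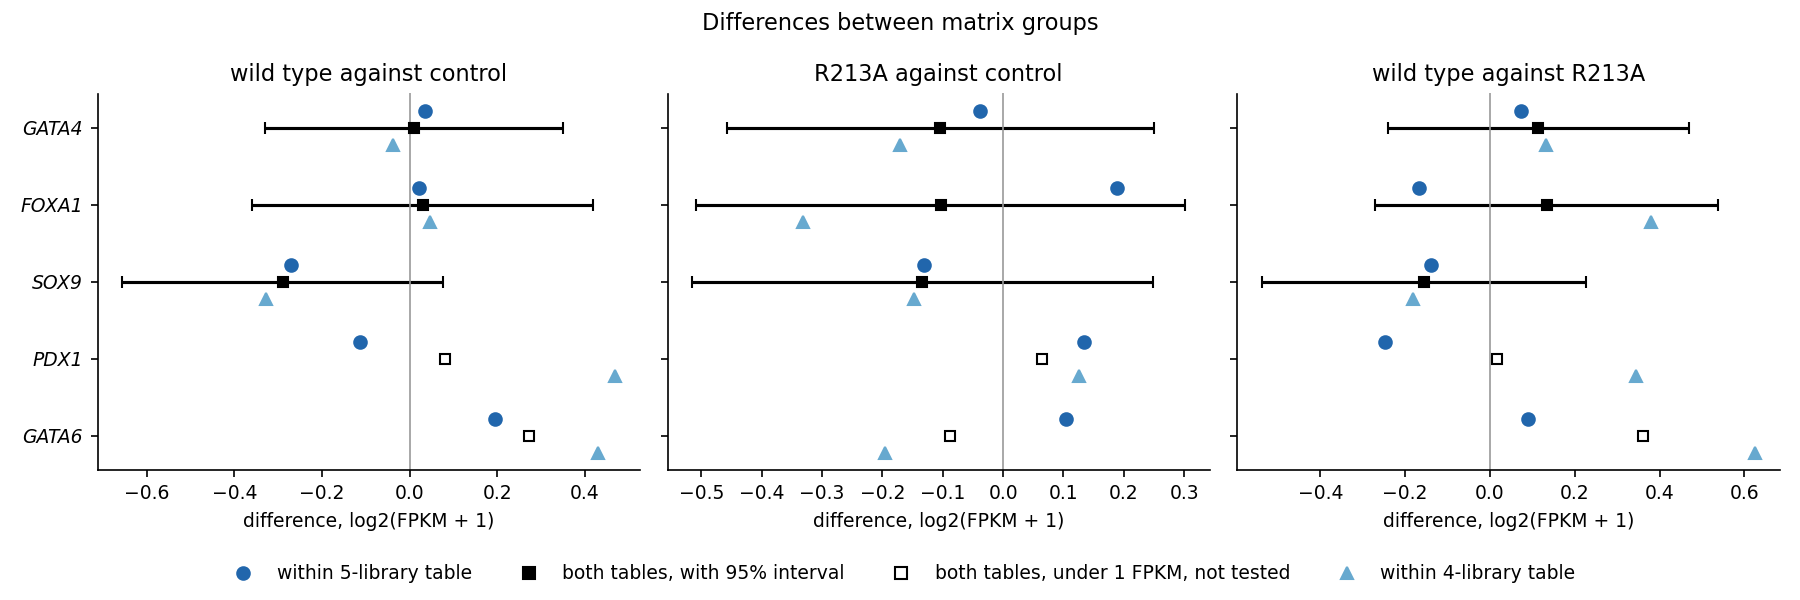
Difference on the log2(FPKM + 1) scale (horizontal axes) for the 5 lineage factors with a read in every library, for wild type and R213A, each against control, and for wild type against R213A; circles and triangles are values within the 5-library and 4-library tables, filled squares are the limma estimates over both tables with 95% intervals, and open squares are estimates of genes under 1 FPKM, which were not tested. Each interval spans 0, and the GATA6 values in wild type against R213A lie between 0.09 and 0.62.

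FOXA1 and SOX9 differed between the deposited tables in each matrix group. Both had all 5 libraries of the 5-library table above all 4 of the 4-library table, as 28.2% of the 13993 genes with at least 10 reads did, while 21.8% had the reverse. GATA4 overlapped, at 4.28 to 5.10 FPKM (5-library table) and 4.91 to 6.01 FPKM (4-library table). Within a library, FOXA1 was 0.652 to 0.927 of the GATA4 level in the 5-library table, but 0.185 to 0.274 of it in the 4-library one. SOX9 was 0.274 to 0.485 of the GATA4 level in libraries of the 5-library table and 0.0428 to 0.102 of it in those of the 4-library table. SOX9 was above PDX1 in 5 of 5 libraries of the 5-library table and below it in 4 of 4 libraries of the other, so that the order of these neighbours depended on the table. The GATA6 level was 0.0830 to 0.163 of that of GATA4 (5-library table) and 0.0495 to 0.169 (4-library table), which overlap.

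**Figure D3:**
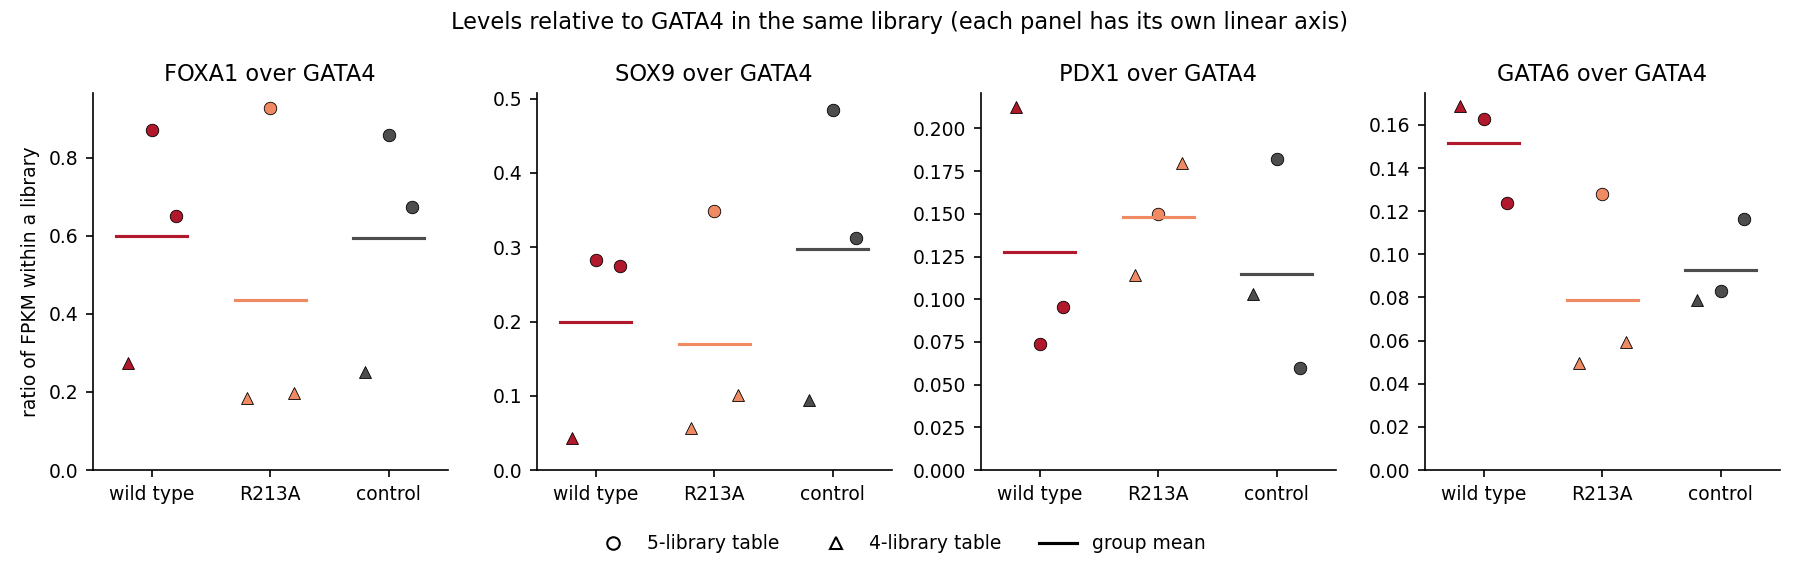
Level of FOXA1, SOX9, PDX1 and GATA6 divided by that of GATA4 in the same library (vertical axes, ratio of FPKM, linear, each panel with its own range) for the wild type, R213A and control libraries, with circles for the 5-library table, triangles for the 4-library table and lines for group means. The FOXA1 ratio is 0.652 to 0.927 in circles and 0.185 to 0.274 in triangles, whatever the matrix.

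Across the 9 libraries, FOXA1 and SOX9 had a Pearson correlation of 0.91 on the log2(FPKM + 1) scale, and of 0.05 once each table was centred on its own mean. GATA4 with FOXA1 gave -0.72 over all libraries and 0.29 after centring, and GATA4 with SOX9 gave -0.74 and 0.04. These are descriptions over 9 libraries of 1 line in 2 tables. After the same centring, the genes whose pattern was most like that of GATA4 were AL450326.1 (0.94), LACTB2 (0.93), PTOV1-AS2 (0.93), ZNF607 (0.92) and EXOG (0.92). For FOXA1 they were NAV3 (0.97), PDP1 (0.95), RAB1A (0.94), NABP1 (0.94) and ZC2HC1A (0.94), and for SOX9 they were PLAT (0.94), BEND3 (0.93), NUP205 (0.93), MN1 (0.93) and EIF3C (0.93). No gene of the lineage lists was among these 15, and values of this size are the highest of 11193 genes over few points.

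In the GATA, HNF4 and SOX families, and for TP63, a relative had a higher mean level than the lineage factor. Among GATA factors, GATA2, known from blood and vessel lineages, averaged 8.74 FPKM and was above GATA4 in 8 of 9 libraries, while GATA5 averaged 0.741 FPKM and GATA3 0.0193 FPKM. GATA2 had 4.38, 9.12 and 9.07 FPKM in wild type libraries 1 to 3, 7.17, 8.94 and 7.11 FPKM in R213A libraries 1 to 3, and 9.52, 14.3 and 8.98 FPKM in control libraries 1 to 3. Wild type and control overlapped, control 2 was the highest library, and the difference of wild type against control was -0.52 ± 0.22. In limma its unadjusted p was 0.039 and its adjusted p 0.757. All R213A libraries lay narrowly below all control libraries (8.94 against 8.98 FPKM at the nearest), as for 2.31% of the 13993 genes with at least 10 reads. That difference was -0.27 ± 0.23, with an adjusted p of 0.692 in limma. ZFPM1, a cofactor that binds GATA factors, averaged 0.582 FPKM.

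HNF4G, the paralogue of HNF4A, averaged 2.26 FPKM and was above HNF4A in 9 of 9 libraries. It had 1.30, 3.44 and 3.17 FPKM in wild type libraries 1 to 3, 0.414, 3.46 and 0.781 FPKM in R213A libraries 1 to 3, and 1.30, 3.03 and 3.46 FPKM in control libraries 1 to 3, and it split by table as FOXA1 did. Of 18 hepatocyte-type HNF4A target genes, 0 reached a mean of 1 FPKM, and the highest was APOM at 0.631 FPKM.

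TP73, a relative of TP63 that acts in neural and ciliated cells, averaged 1.35 FPKM, beside 5 reads of TP63 in all. It was above TP63 in 9 of 9 libraries. Of 15 genes known as p63 targets in epidermis, 9 reached 1 FPKM, with ITGA3 at 156, LAMB3 at 104, ITGA6 at 55.0 and PERP at 34.8 FPKM, most of them genes of basement membrane adhesion. None of the 9 passed in any comparison. ITGA6 in wild type against control, at -0.88 ± 0.33 with an adjusted p of 0.757 in limma, was the one gene of the 9 with an unadjusted p under 0.05, and control 2 had its highest level, 139 FPKM. KRT5 and KRT14, the keratins of basal epidermal cells, had no read in any library.

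Among 12 SOX relatives of SOX9, 4 reached 1 FPKM, led by SOX12 at 20.8 FPKM and SOX13 at 3.73 FPKM. SOX4 averaged 0.732 FPKM. FOXA3 averaged 0.242 FPKM, between FOXA1 and FOXA2.

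**Figure D4:**
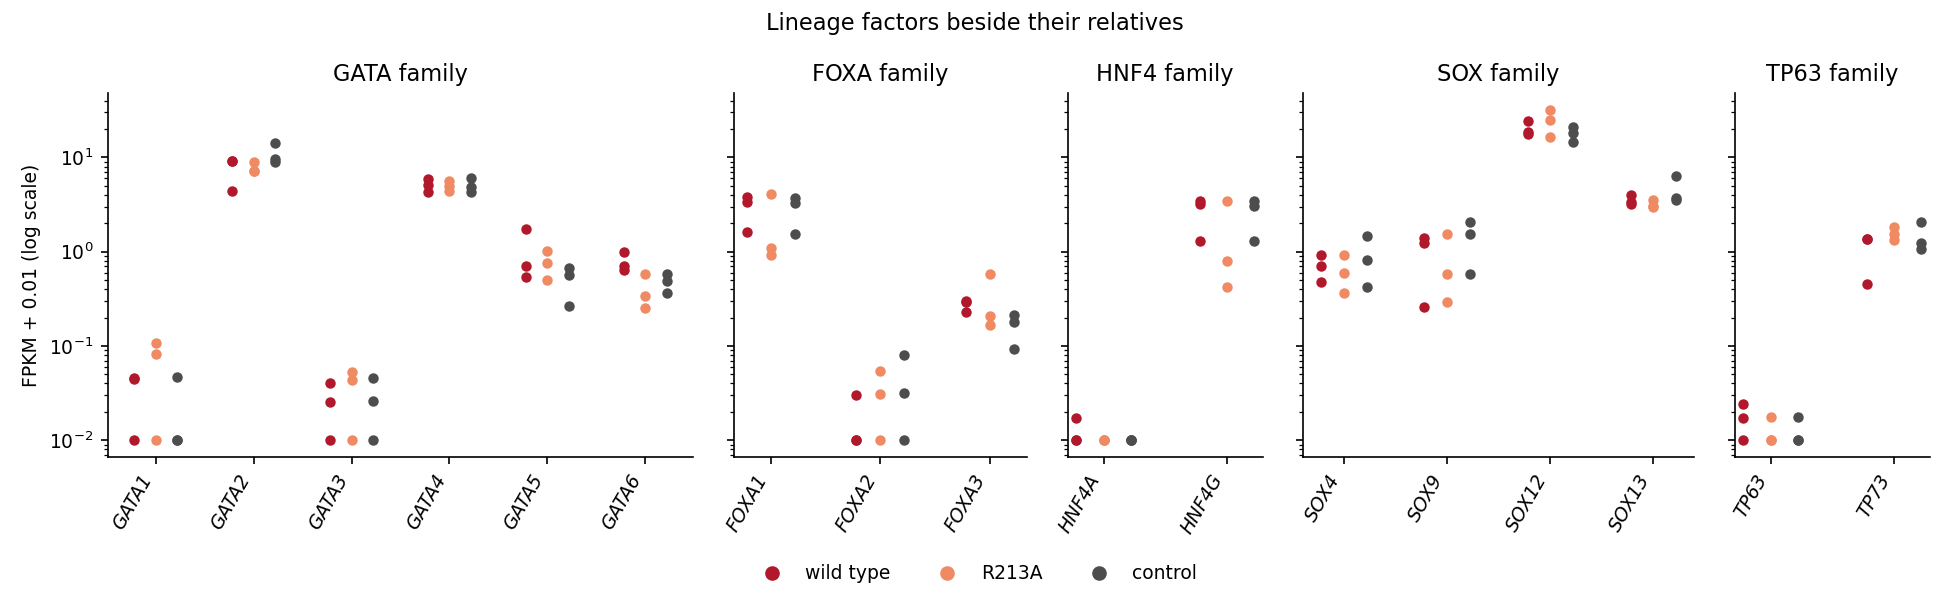
Level of each lineage factor and its relatives as FPKM + 0.01 (vertical axis, log scale) in the 3 wild type, 3 R213A and 3 control libraries, 1 point per library. GATA2 and GATA4 stand above GATA6, HNF4G above HNF4A, and TP73 above TP63.

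Genes of the classical state were close to absent along with HNF4A and FOXA2. Of 26 genes that define classical pancreatic tumours, such as the mucosal trefoil factors TFF1 and TFF2 and the secretory gene AGR2, 0 reached 1 FPKM, 24 averaged under 0.1 FPKM and 8 had no read in any library. The highest was LGALS4, an intestinal lectin, at 0.189 FPKM. Summed over the 26 genes, the level was 0.382 to 0.511 FPKM in wild type, 0.402 to 0.950 FPKM in R213A and 0.338 to 1.00 FPKM in control libraries, which overlap.

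Genes of the basal-like state were present in part. Of 27, 5 reached 1 FPKM, namely SLC2A1 (61.6 FPKM), S100A2 (19.7 FPKM), CTSV (3.28 FPKM), CST6 (2.87 FPKM) and KRT15 (2.10 FPKM). A further 16 averaged under 0.1 FPKM, and 7 of the 27 had no read. SLC2A1 is the glucose transporter GLUT1, which many cell types use, and S100A2 is a calcium-binding protein of squamous and basal-like cells. The summed level was 49.3 to 120 FPKM in wild type, 64.8 to 113 FPKM in R213A and 71.4 to 116 FPKM in control libraries. SLC2A1, at a mean of 61.6 FPKM, was the largest part of this sum on average. KRT15, a keratin of basal epithelium, split by table, with 2.84 to 6.40 FPKM (5-library table) and 0.0679 to 0.168 FPKM (4-library table). None of the 5 passed in any comparison. Their median difference was -0.23 in wild type against control, 0.14 in R213A against control and -0.30 in wild type against R213A, beside -0.03, -0.02 and -0.01 over all genes tested. Each of these changed sign when 1 library was left out. The first was 0.29 without wild type 1 and 0.05 without control 1, the second -0.11 without R213A 1, and the last 0.04 without wild type 1. R213A 1 held the highest S100A2 and CST6 levels, 50.6 and 11.8 FPKM, and control 2 the highest KRT15 level.

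**Figure D5:**
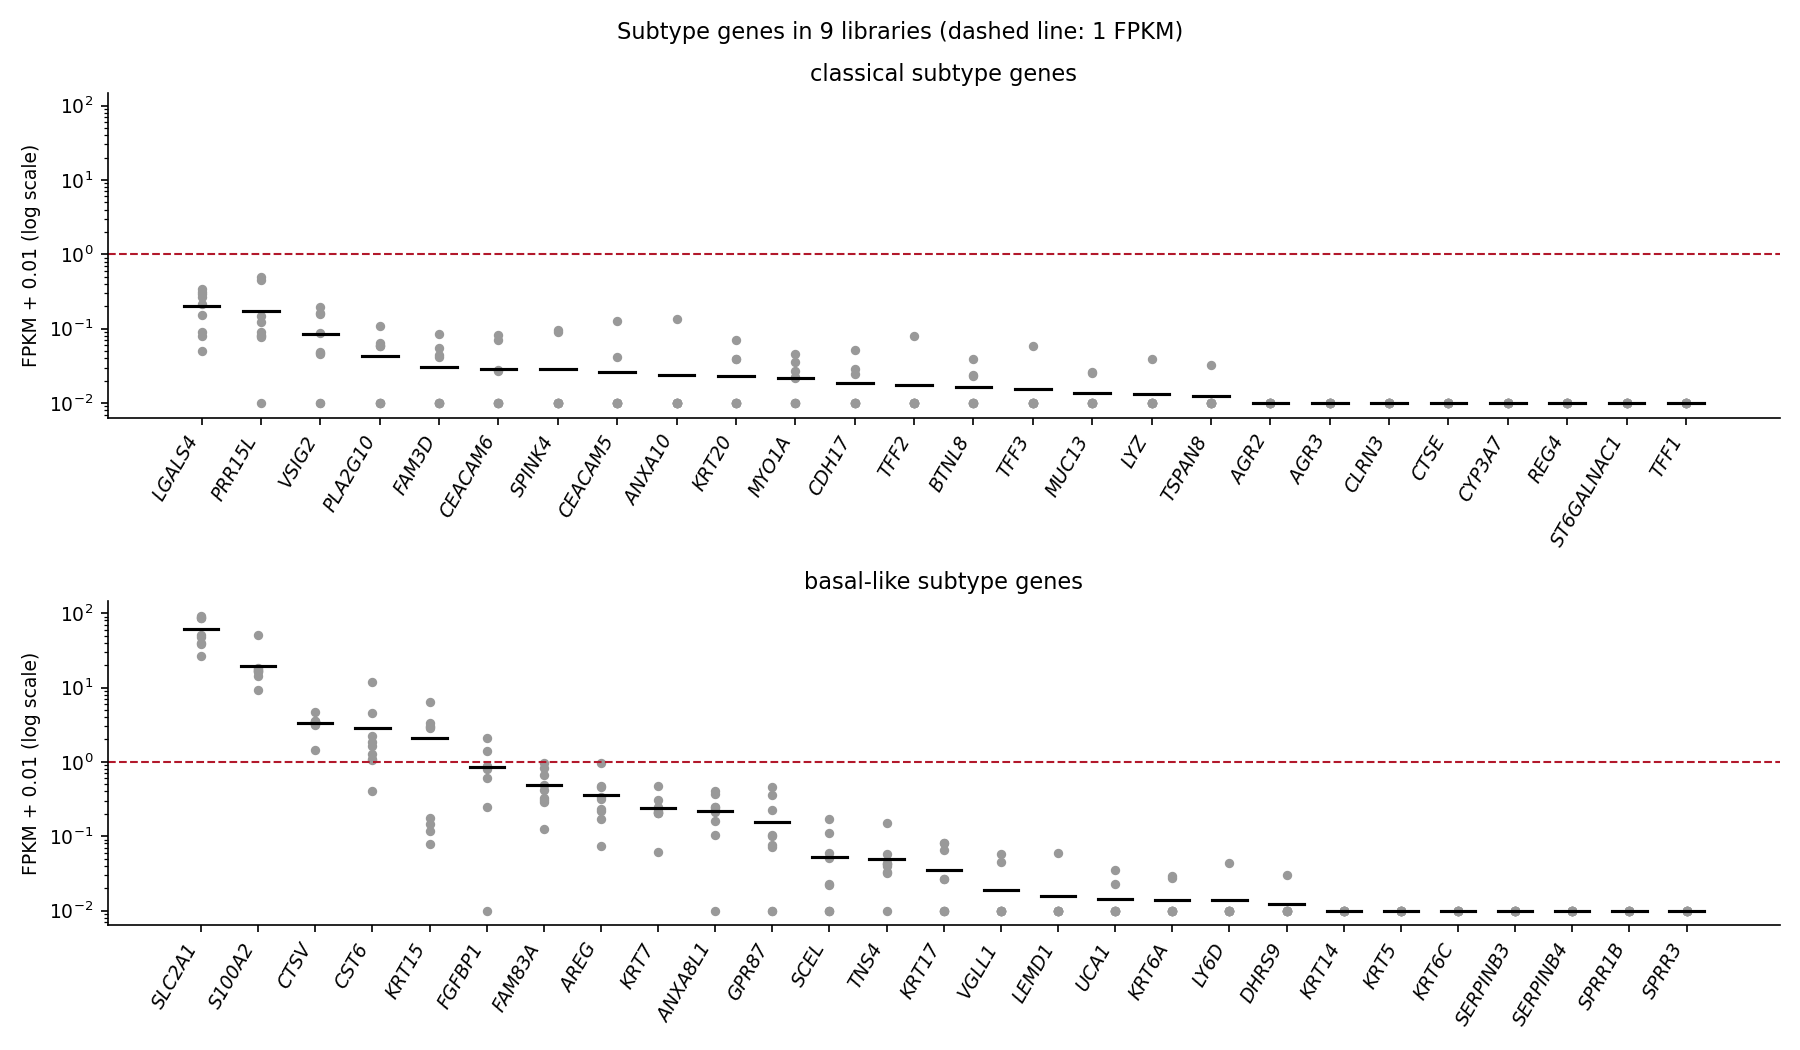
Level of the 26 classical and 27 basal-like subtype genes as FPKM + 0.01 (vertical axes, log scale) in the 9 libraries, with 1 point per library, a short line at each gene's mean and a dashed line at 1 FPKM. None of the classical genes reaches a mean of 1 FPKM, and 5 of the basal-like genes do, from KRT15 at 2.10 FPKM to SLC2A1 at 61.6 FPKM.

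Of 17 regulators of the basal-like and squamous state, 6 reached 1 FPKM, among them MYC (57.4 FPKM), TFAP2A (7.22 FPKM), SIX4 (4.40 FPKM), ZEB1 (3.85 FPKM) and TP73. MYC drives growth and biosynthesis, and ZEB1 represses E-cadherin and other epithelial genes. None passed in any comparison, and the medians were -0.26 in wild type and -0.28 in R213A, each against control, and -0.04 in wild type against R213A, beside -0.03, -0.02 and -0.01 over all genes tested. Control 2 held the highest levels of TFAP2A (21.9 FPKM), SIX4 (9.34 FPKM) and ZEB1 (9.01 FPKM), against at most 6.74, 5.77 and 4.89 FPKM in the other 8 libraries. Without control 2 the medians against control were -0.20 in wild type and -0.19 in R213A. Without wild type 1, the median in wild type against R213A was 0.10. 

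Of 14 factors of epithelial identity in classical tumours, 5 reached 1 FPKM, led by KLF4 (32.9 FPKM) and KLF5 (5.74 FPKM), Krüppel-like factors of gut and other epithelia. CREB3L1 (2.86 FPKM), the intestinal factor CDX2 (2.12 FPKM) and MYRF (1.25 FPKM) were the others. KLF5 had 0.917, 8.93 and 9.18 FPKM in wild type libraries 1 to 3, 1.02, 10.04 and 1.13 FPKM in R213A libraries 1 to 3, and 3.23, 7.79 and 9.44 FPKM in control libraries 1 to 3, and it split by table like FOXA1. CDX2 had the reverse split, at 0.989 to 1.36 FPKM (5-library table) and 2.38 to 4.06 FPKM (4-library table). None of the 5 passed in any comparison, with medians of 0.05, -0.08 and 0.07, each of which changed sign when 1 library was left out (-0.14 without wild type 1, 0.13 without control 2 and -0.10 without wild type 1).

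Of 33 other foregut and pancreas factors, 4 reached 1 FPKM: HHEX (5.72 FPKM), an early foregut homeobox factor, HNF4G, CDX2 and MNX1 (1.75 FPKM), a homeobox factor of the early pancreas. None passed in any comparison, with medians of 0.03, -0.01 and -0.0047, which also changed sign when single libraries were left out, within -0.07 to 0.06. A further 22 averaged under 0.1 FPKM and 8 of the 33 had no read.

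Markers of other pancreatic cells were low, and duct markers were present in part. Of 16 duct markers, 6 reached 1 FPKM, with KRT18 at 348, KRT8 at 153, CA2 at 17.2, EPCAM at 4.57, ANXA4 at 3.09 and MUC1 at 1.14 FPKM. The duct keratin KRT19 had 8 reads in all and E-cadherin (CDH1) stayed at or under 0.136 FPKM, so that these defining epithelial markers were nearly absent from a line labelled as pancreatic tumour cells. None of the 16 acinar, 14 endocrine, 8 fibroblast, 7 immune and 5 endothelial markers reached 1 FPKM. The highest were CEL at 0.195, CHGB at 0.662, COL3A1 at 0.396, CD14 at 0.0883 and CDH5 at 0.293 FPKM. COL3A1 among the 8 fibroblast markers, and CDH5 and VWF among the 5 endothelial markers, were higher in each library of the 5-library table than in the 4-library table, as FOXA1 and SOX9 were. COL3A1 had 0.331 to 0.828 FPKM there, against 0 to 0.0479 FPKM, CDH5 had 0.292 to 0.731 FPKM, against 0.0085 to 0.0715 FPKM, and VWF had 0.0376 to 0.240 FPKM, against 0.0051 to 0.0284 FPKM. The other 7 fibroblast and 3 endothelial markers were not separated in this way, and FAP had no read. For comparison, 28.2% of the 13993 genes averaging 10 or more recovered reads were separated in this direction. Summed over the list, fibroblast markers were at 0.072 to 0.852 FPKM in wild type, 0.055 to 0.808 FPKM in R213A and 0.065 to 0.905 FPKM in control libraries. Endothelial markers were at 0.083 to 0.802 FPKM in wild type, 0.129 to 0.522 FPKM in R213A and 0.164 to 1.03 FPKM in control libraries. Their part in the split by table was not tested.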

How the data were processed

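RNA was extracted with TRIzol and about 500 ng went into each Illumina TruSeq stranded mRNA library, per the labels' protocols. The deposited values are FPKM per gene, which the authors computed. The submitters' processing notes name hg38 and bcl2fastq, and for the aligner, counter, strand setting and annotation the sources used here give nothing. The values came in 2 tables of 5 and 4 libraries. FPKM times gene length gave whole reads for 100% of values within a tolerance of 0.01 reads, and the scaling of the deposited values was 0.850 to 1.09 of the read totals. It was lowest in R213A 1 (0.850) and control 2 (0.902) and lay between 1.01 and 1.09 in the other libraries. A lower scaling gives a higher FPKM for the same share of reads, so levels in R213A 1 and control 2 are raised relative to the others. Gene positions matched in start and end for 99.98% of the 58780 GENCODE 29 gene entries that carry an identifier of the deposited tables.

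Limma 3.58.1 in R 4.3.3 was fitted to log2(FPKM + 1) of the 9 libraries, with matrix group and table as terms (5 residual degrees of freedom), a trend of the variance with the mean and a filter at a mean of 1 FPKM. A fold change on this scale understates the change of low genes. The group by table interaction tested whether a difference changed between tables. Intervals and floors (3 reads) cover counting error only. The members and gene lists were chosen with earlier results of these data known. Named were all members, from each list up to 6 genes of highest mean of at least 1 FPKM and up to 2 of smallest p per comparison, and the 5 genes most alike each tested member. Others named (the highest gene of a list with none at 1 FPKM, relatives of members, and KRT5, KRT14, KRT19, CDH1, TFF1, TFF2, AGR2, VWF and FAP) were chosen after their values were seen. Some genes of the lists are not reported here. Alternatives changed the pseudocount (0.1, 0.5), the filter (none, a mean of 5 FPKM), the scaling, the variance model, the table term and a replicate block, the libraries and a count model. A filter at a mean of 10 recovered reads, also with limma-voom, was chosen after seeing the data.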

Additional observations from a re-analysis of the deposited data

How the results depend on the processing

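No alternative called a member. The count of genes called was 0 in each comparison in the main analysis and also when each library was left out in turn, where it ranged from 0 to 0. Without a filter on low values it was 1 of 30368 genes for wild type against control and 1 for R213A against control. Signs of small differences (log2) turned under several settings. FOXA1 in wild type against control was at -0.065 without wild type 1 and at -0.034 without control 3, and ranged from -0.065 to 0.11 over the libraries left out. GATA4 in that comparison was at -0.044 without wild type 3 and at -0.043 without control 2, in a range from -0.044 to 0.064, and at -0.038 in the 4-library table alone. FOXA1 in R213A against control was at 0.19 in the 5-library table alone and at 0.0063 without control 1, in a range from -0.34 to 0.0063. FOXA1 in wild type against R213A was at -0.17 in the 5-library table alone, and SOX9 in that comparison was at 0.13 without the table term. The causes were not tested beyond these settings. The labels do not say that replicate numbers pair the libraries. Deviations of same-numbered libraries from their group means correlated between -0.702 and 0.843, with 7 of 9 pairs over 0.1. Libraries numbered 1 share a table, as do those numbered 2, and with the table removed all 9 correlations were negative, from -0.755 to -0.063. The fit makes deviations sum to 0 within each group and each table, which pushes such correlations below 0. Their sign therefore cannot decide whether the numbers pair the libraries. The fit with the replicate number as a block called 0 genes in each comparison, with 285, 632 and 125 genes at an unadjusted p under 0.05. PDX1 was of either sign in each comparison over the libraries left out, from -0.11 to 0.24 in wild type against control, -0.068 to 0.20 in R213A against control and -0.24 to 0.15 in wild type against R213A, and it was at -0.044 in R213A against control with the replicate block. GATA6 in R213A against control was at 0.10 in the 5-library table alone. In wild type against control it was at 0.62 with a pseudocount of 0.1, and in wild type against R213A at 0.87. Depth limits PDX1 (13 to 60 reads) and GATA6 (13 to 75 reads), and leaves FOXA2, TP63 and HNF4A without a measurable difference.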
